A study of Mus musculus with 26 samples.

Results

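Nptn encodes neuroplastin, a membrane glycoprotein of the immunoglobulin superfamily. All C-to-U editing sites assigned to Nptn were taken from both deposited lists, selected on the gene symbol alone, which gave 9 distinct positions of 526 in the series. The bulk list held 3 of its 410 sites in Nptn, the single-cell list held 7 of its 171 sites there, and 1 position was in both. Nptn was singled out after its single-cell rates were known to range widely, so those rates are given as a description without a test.

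The material was bone marrow-derived macrophages of C57BL/6J mice, grown in 20 ng per ml M-CSF and harvested 7 to 9 days after isolation. Single cells came as 24 wild-type libraries, captured on a microfluidic chip and all from the same mouse. RNA of many cells came as 1 bulk library from Apobec1 -/- macrophages and 1 bulk library from wild-type macrophages. The knockout library entered only as a filter, since a bulk site was kept where the C-to-T change was read in wild type and not in the knockout. Of the 7 single-cell sites of Nptn, 1 was also in the bulk list. Whether the other single-cell sites depend on APOBEC1 was not tested. The cells have no replicate mouse and the bulk values have no replicate library. The authors report that they checked maturation by flow cytometry for macrophage surface markers. The files hold editing sites only, so the macrophage identity could not be checked here by expression. Of 8 macrophage markers 1 was listed as edited, Itgam, and of 5 markers of neurons, lymphocytes or endothelium none was. A gene that is not listed may still be expressed, so these counts do not identify the cells.

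APOBEC1 is a cytidine deaminase that turns C into U in messenger RNA. It favours a C that follows an A in sequence rich in A and U, often with a so-called mooring sequence downstream, and most of its targets outside the intestinal Apob transcript lie in 3′ untranslated regions (3′ UTRs), where the protein is not altered. Neuroplastin is related to basigin and embigin. It serves as an accessory subunit of plasma membrane calcium pumps and is best known from synapses, although it is made in many tissues.

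The 9 sites lay on the plus strand of chromosome 9 (mm10, the same build as GRCm38), in the last of 8 exons of Nptn-201. This is the lowest-numbered of 3 coding transcripts in GENCODE that hold all 9 sites, and other coding transcripts hold none of them. The last exon of Nptn-201 runs from 58651859 to 58652878, and the 3′ UTR of this transcript is 1034 nt long. The reference base was C at each of the 9 sites. Counted along the spliced transcript from the first base after the stop codon, the sites were at nucleotides 109 (position 58651953), 296 (58652140), 349 (58652193), 363 (58652207), 471 (58652315), 500 (58652344), 630 (58652474), 769 (58652613) and 887 (58652731). They are called by these nucleotide numbers from here on. They spanned 778 nt, with 14 nt between the closest pair, sites 349 and 363, and 29 nt between the next, sites 471 and 500.

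The stretches of the reference printed here show the sequence around some of the sites. Whether the context bears on the rates was not tested. The first holds sites 349 and 363, the closest pair, and the others hold a site each, with the edited C in capitals (5′ to 3′, plus strand, GRCm38).
Sites 349 and 363, chr9:58652186-58652215: ctctaaaCgcactgctgccatCtagtgatc
Site 471, chr9:58652305-58652325: ataaagtcaaCgcttgtttca
Site 500, chr9:58652334-58652354: tgctgatactCattccttatt
Site 630, chr9:58652464-58652484: gtccactgaaCggctagaatg
Site 887, chr9:58652721-58652741: gatttcatgaCtgatgataga

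The base before the edited C was A at 6 of the 9 Nptn sites (66.7%) and T in the genome at the other 3, sites 296, 363 and 500. Of the other 172 C of the same 3′ UTR, 26.7% followed an A, and of 517 sites of other genes, 85.3% did. Thus 6 of the 52 AC steps in the UTR were listed as edited. The A+T share of the C with 50 nt on each side was 64.4% at the median Nptn site (53.5% to 69.3%), against 63.4% around the other C of the UTR and 66.3% at the sites of other genes. The letters TGAT, part of the mooring motif, were searched on the transcript strand in the 20 nt after the C. They were found at 2 of 9 Nptn sites, 363 and 887, against 15.7% of the other C of the UTR and 11.0% of the sites of other genes.

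One context was noticed only after the sequences had been read. Sites 349, 471 and 630 all sat in AACG on the transcript strand, which occurred at 4 of the 181 C of the UTR, so that 3 of the 4 were listed sites. The remaining one was at nucleotide 35. Among the sites of other genes, 8 of 517 (1.55%) were in AACG.

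In the bulk wild-type library, site 349 was the most edited of the 3 Nptn sites, with 13 of 54 reads edited, or 24.1% (exact Clopper-Pearson 95% interval 13.5% to 37.6%). It ranked 27th of 410 sites by rate. Site 296 was edited in 8 of 63 reads, or 12.7% (5.65% to 23.5%), and site 471 in 7 of 58 reads, or 12.1% (4.99% to 23.3%). Both of these lay close to the median of 11.8% over the sites of other genes. All 3 sites were well covered, at 54 to 63 reads, against a median of 30 reads over the sites of other genes. These intervals account for read counting alone, because the libraries had no molecular identifiers and reads may stem from a shared molecule.

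The bulk rates of the 3 sites were compared by Fisher's exact test, two-sided, with Benjamini-Hochberg adjustment over the 3 pairs. Site 349 exceeded site 471 by 12.0 percentage points (Newcombe 95% interval -2.34 to 26.2; exact p = 0.138, adjusted p = 0.221) and site 296 by 11.4 points (-2.67 to 25.6; exact p = 0.148, adjusted p = 0.221). Sites 296 and 471 differed by 0.629 points (-11.8 to 12.7; exact p = 1). None of the differences was larger than the counting error at this depth, and a difference of 26.2 points lies within the widest interval. Sites 349 and 296 are 53 nt apart and can share a 100-nt read, so their counts are not fully independent. In a bulk library, a site edited strongly in few cells and one edited weakly in many cannot be told apart, nor can fewer expressing cells and less RNA per cell.

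In the single cells, site 349 was again the most edited. It was covered in 23 of the 24 cells and edited in 14. The rates ran from 0% through a median of 11.1% to 85.7%, with a mean of 23.7% ± 28.8 (SD, n = 23 cells). The 14 edited cells had 3.70%, 8.33%, 11.1%, 13.3%, 13.3%, 27.3%, 31.3%, 41.7%, 50%, 50%, 62.5%, 72.7%, 75% and 85.7%. Thus 9 covered cells showed no edited read, 8 lay between 3.70% and 41.7%, and 6 were at 50% or above. The difference from the bulk rate, cells minus bulk, was -0.337 points, far smaller than the spread over cells.

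**Figure D1:**
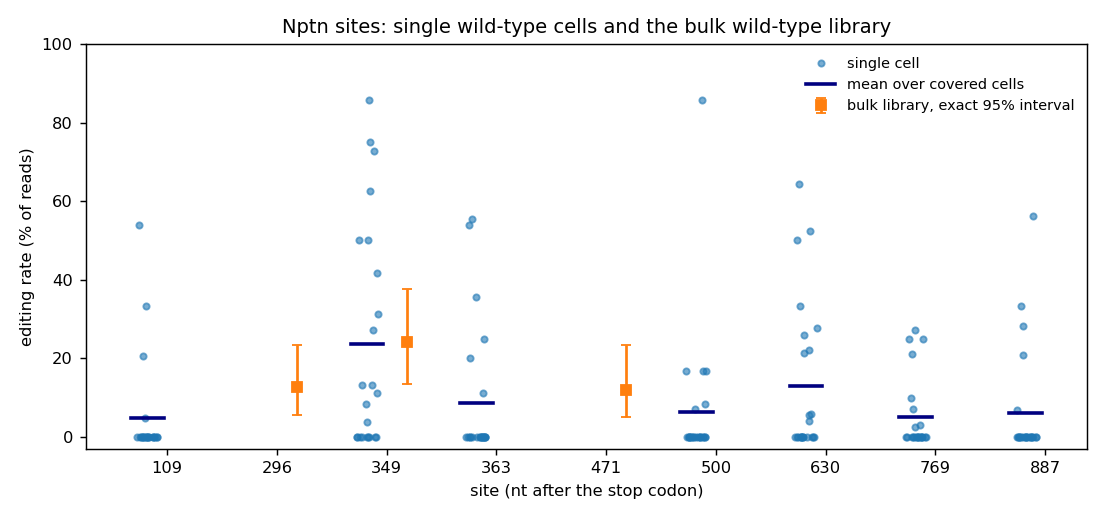
Editing rate (% of reads) at each Nptn site, with sites along the horizontal axis as nucleotides after the stop codon. Blue points are single cells, dark bars their means, and orange squares the bulk rates with exact 95% intervals. At site 349 the cells reach from 0% to 85.7% around a mean of 23.7%, beside a bulk rate of 24.1%.

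The deposited rates per cell come without read depth, so a rate of 0% means no edited read among an unknown number of reads, and the sampling error of a single cell's rate is unknown. How much of the spread between cells is sampling error was not tested. The list holds only sites edited in at least 3 cells, so a low number of edited cells could not appear in it, and the least often edited Nptn site had 4. Sites 296 and 471 have bulk values only, and their rates per cell are not analysed here.

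Site 630 followed, edited in 11 of 24 cells at 13.0% ± 19.7 (SD, n = 24), with a median of 0% and a highest rate of 64.3%. Site 363 was edited in 6 of 23 covered cells at 8.75% ± 17.4 and reached 55.6%. Site 500 was edited in 6 of 24 cells at 6.30% ± 17.9. Its highest cell, at 85.7%, stood far above the next, at 16.7%, and without it the mean was 2.85%.

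Site 887 was edited in 5 of 24 cells at 6.06% ± 14.2, with a highest rate of 56.3%. Without that cell, column 13, its mean was 3.87%. Site 769 had the narrowest spread, edited in 8 of 24 cells at 5.04% ± 9.31 and never above 27.3%. Site 109 was edited in 4 of 23 covered cells at 4.90% ± 13.4. Its edited cells had 4.76%, 20.5%, 33.3% and 54.1%, and without the last the mean was 2.66%. The means over all covered cells fell in the order 349, 630, 363, 500, 887, 769 and 109. Steps between neighbours in that order were 10.7 points or less and smaller than the SD of single cells at either site, and the order of the last 4 rests on single cells. The sites were not tested against each other.

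The listed rates were spread unevenly over sites and cells. Read depth per cell is unknown, so a high rate may rest on few reads. Of 165 covered values, 54 were above 0 and 14 were at 50% or more. A reading at 50% or more was seen at 6 of the 7 single-cell sites, all but site 769, in at least 1 cell each. Across cells, 21 of 24 were edited at 1 or more sites, 16 at 2 or more, and none at all 7, the most being 5 sites. The mean was 2.25 sites per cell.

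**Figure D2:**
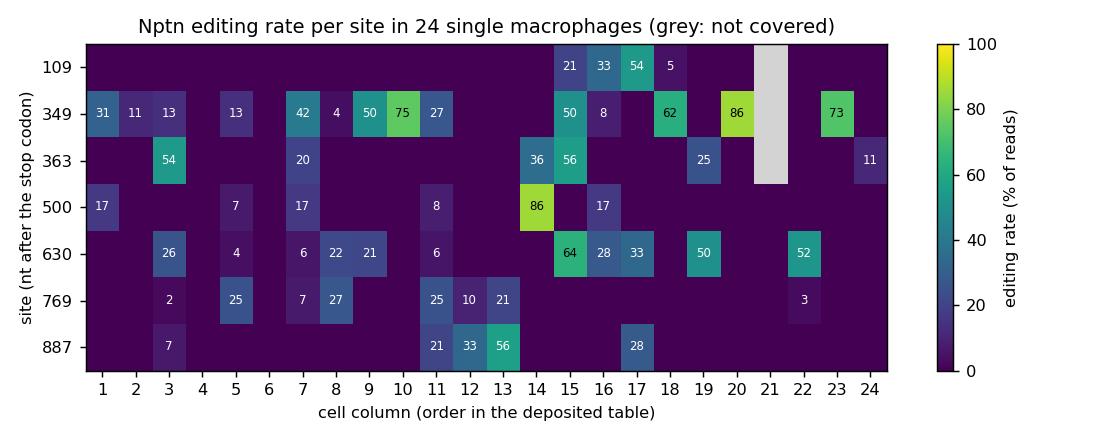
Editing rate (% of reads, colour scale from 0 to 100) at the 7 single-cell sites of Nptn, in rows by nucleotides after the stop codon, for the 24 cell columns. Numbers give rates above 0, rounded, and grey marks the 3 uncovered values of column 21. Columns 10, 20 and 23 are bright at site 349 and dark elsewhere, column 15 is bright at sites 349, 363 and 630, and columns 14, 17 and 22 are bright at other sites only.

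The cells are named by their column in the deposited table, whose headers do not tie a column to a labelled cell, and the order of columns has no meaning here. No 2 of the 24 columns were identical over the 171 sites. In the 21 edited cells there were 17 different sets of edited sites, 15 of them found in a single cell. The most frequent set was site 349 alone, in 4 cells, columns 2, 10, 20 and 23.

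Site 349 was at 50% or more in 6 cells. In 3 of them, columns 10, 20 and 23, at 75%, 85.7% and 72.7%, none of the other 6 sites was edited. Column 18 had 62.5% at site 349 and 4.76% at site 109. Column 9 had 50% at site 349 and 21.4% at site 630. Column 15 was the exception, with 50% at site 349, 55.6% at site 363, 64.3% at site 630 and 20.5% at site 109, the highest summed rate of all cells at 190.4 percentage points. It was the only cell with more than 1 site at 50% or more.

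Site 349 was covered and read as 0% in 9 cells, and 7 of these were edited elsewhere in the same 3′ UTR. In 5 of them another site was at 50% or more. Column 14 had 85.7% at site 500 and 35.7% at site 363. Column 17 had 54.1% at site 109, 33.3% at site 630 and 28.1% at site 887. Column 13 had 56.3% at site 887 and 21.1% at site 769.

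Columns 19 and 22 had 50% and 52.4% at site 630. The remaining cells without editing at site 349 were columns 12 and 24, edited elsewhere at up to 33.3% and 11.1%, and columns 4 and 6, with no edited Nptn site at all. Column 21, which lacked coverage at sites 109, 349 and 363, was at 0% in the other 4. The rates at the other 6 sites, summed per cell, were 38.9 ± 42.1 points in the 14 cells edited at site 349 and 55.5 ± 46.2 points in the 9 cells read as 0% there (SD). The sums ranged from 0 to 140.4 points with a median of 28.9 in the cells edited at site 349 and from 0 to 121.4 points with a median of 55.4 in the cells read as 0% there, so the ranges overlapped. In the 6 cells at 50% or more at site 349 the median was 2.38 points, in a range from 0 to 140.4 points. The upper end, column 15, was the highest of all cells. Over the 23 covered cells, the rate at site 349 and the sum at the other sites had r = -0.352 and rho = -0.318. Without the 2 cells with the most extreme sums, columns 14 and 15, r was -0.50 and rho -0.376. Leaving these out removes column 15, which was high both at site 349 and elsewhere.

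**Figure D3:**
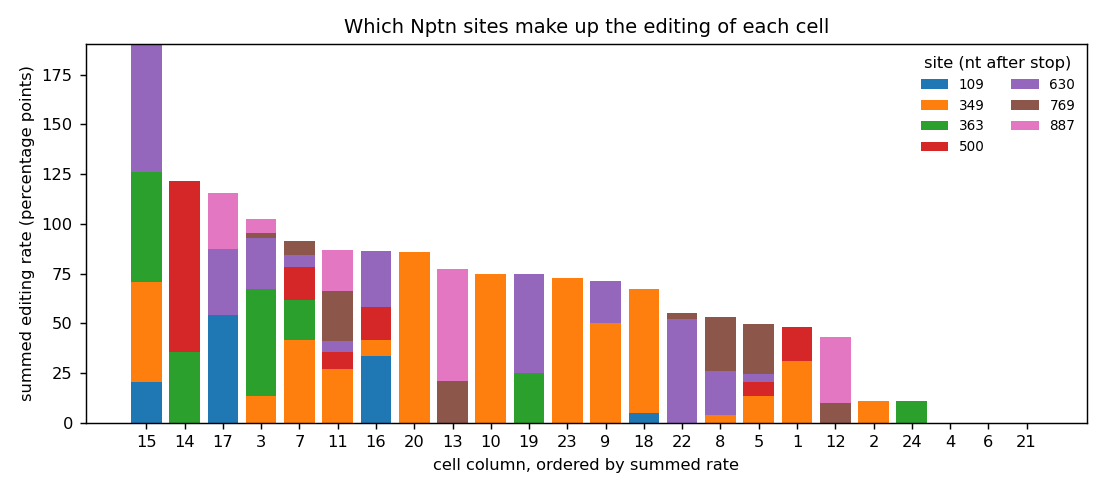
Summed editing rate over the 7 single-cell sites of Nptn (percentage points, vertical axis, uncovered sites counted as 0) for each cell column, ordered by the sum, with colours for the sites by nucleotide after the stop codon. The sums run from 0 points in columns 4, 6 and 21 to 190.4 points in column 15, and different colours lead in different cells.

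The site with the highest rate in a cell also varied. It was site 349 in 9 cells, site 630 in 3, sites 109, 363, 769 and 887 in 2 each, and site 500 in 1. In the median edited cell, the leading site held 70% of the summed rate. The lowest such share was 31.3%, in column 11, which was edited at 5 sites between 5.56% and 27.3%.

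Correlations across cells between the 7 sites were weak. Over the 21 pairs, each over 23 or 24 cells of the same mouse and with each cell's sites read from a shared library, Pearson's r had a median of -0.110 and ran from -0.304 to 0.473. It was below 0 in 15 pairs and above 0.5 in none over all covered cells. Spearman's rho had a median of 0.0368 and was below 0 in 8 pairs. With this many values at 0%, weak coefficients describe the tables and no more.

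All 6 pairs with site 349 had a negative r, from -0.304 with site 887 to -0.0406 with site 363, its neighbour at 14 nt. This sign was not firm, as rho was below 0 in 4 of the 6, and with 1 cell left out r came above 0 for the pairs with sites 109, 363 and 500, at up to 0.0295. A single 100-nt read can hold both sites 349 and 363. They were both edited in 3 cells, columns 3, 7 and 15. Site 349 alone was edited in 11 cells and site 363 alone in 3.

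The highest r was between sites 363 and 630, at 0.473 (n = 23, both edited in 4 cells), and 0.115 without the 2 cells farthest from the median at site 363. Sites 769 and 887 had r = 0.434 (n = 24, both edited in 4 cells), and 0.740 without the 2 farthest cells at site 769. Sites 109 and 630 had r = 0.430 (n = 23, both edited in 3 cells), and 0.556 without the 2 farthest at site 109. Another 2 pairs also depended on few cells. Sites 363 and 500 had r = 0.297, -0.0753 without column 14, and 0.716 without the 2 cells farthest from the median at site 363. Sites 109 and 363 had r = 0.0301, and 0.548 without the 2 farthest at site 109. Distance along the UTR did not order the pairs, as the 3 highest values were at 267, 118 and 521 nt.

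**Figure D4:**
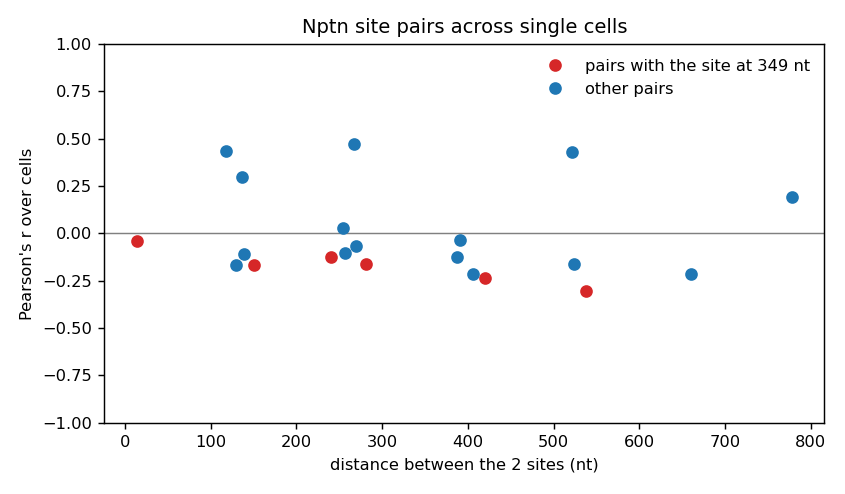
Pearson's r over cells (vertical axis, no unit) for the 21 pairs of Nptn single-cell sites against the distance between the sites (nt, horizontal axis), with the 6 pairs of site 349 in red and the other pairs in blue. The red points all lie below 0, down to -0.304, and the highest blue point is at 0.473.

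The other 6 genes with at least 7 single-cell sites gave a background for these values. The median r over site pairs was -0.110 in Nptn, against -0.114 in the scavenger receptor gene Cd36, -0.0826 in Msn (moesin), 0.020 in App (amyloid precursor protein), 0.0445 in Atp6ap2, 0.0584 in B2m and 0.0799 in Cybb, the catalytic subunit of the phagocyte NADPH oxidase. The highest r of a pair was 0.473 in Nptn, against 0.843 in Cd36, 0.842 in App, 0.688 in Atp6ap2, 0.606 in Cybb, 0.532 in Msn and 0.470 in B2m. The number of pairs differs between the genes, from 21 in Nptn, B2m, Cd36 and Msn to 105 in App.

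A cell was edited on average at 32.1% of the Nptn sites and 15.5% of the Cd36 sites. The share was 27.7% to 36.5% in App, Atp6ap2, Cybb and Msn, and 97.6% in B2m, which encodes the invariant chain of MHC class I. Uncovered values counted as not edited. Coverage was lower in Cd36, at 15 to 23 cells per site, against 23 or 24 in Nptn. At least 1 site at 50% or more was seen in 12 cells for Nptn, against 10 for Atp6ap2, 9 for App, 7 for B2m, 6 for Cd36, 5 for Msn and 4 for Cybb. No test was made between the genes, since site numbers and read depth per cell differ and the latter is unknown.

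Site 349 had the widest spread over cells of the 131 sites covered in at least 20 cells, with an SD of 28.8 points. Over all 171 sites it ranked 3rd, after a site of F13a1 (44.8 points, 4 covered cells) and a site of Tmed5 (33.4 points, 8 covered cells), and just ahead of Degs1 (28.3 points, 22 covered cells). Its mean rate was the 4th highest. Spread and mean are tied, since a rate near 0% leaves little room, so the variance was also set against the most it could be at that mean, with every cell at 0% or 100%. On this scale site 349 had 0.458 and ranked 24th of the 131, and the highest Nptn site was site 500, at 0.541 and rank 14. The median over the 7 Nptn sites, all covered in at least 20 cells, was 0.379. Over the 164 sites of other genes, of which 124 were so covered, it was 0.302.

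**Figure D5:**
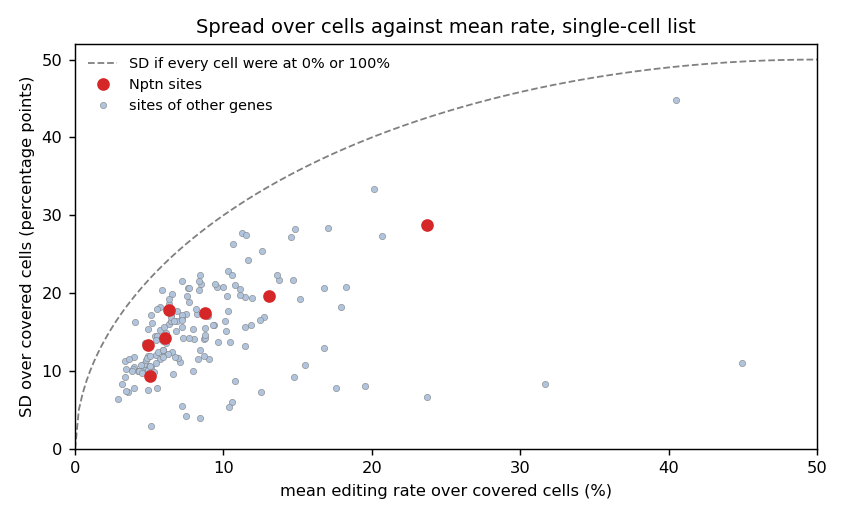
SD over covered cells (percentage points, vertical axis) against the mean editing rate over covered cells (%, horizontal axis) for the 171 single-cell sites, with the 7 Nptn sites in red and sites of other genes in pale blue. The dashed line is the SD that many cells, each at 0% or 100%, would have. The red point at 23.7% and 28.8 points is site 349, and the other Nptn sites lie among those of other genes.

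At site 349 the mean over cells was 0.986 times the bulk rate. The median ratio was 0.581 (0.242 to 1.25) over the 54 sites of other genes that were in both lists, of which 5 had a higher ratio. The ratio at site 349 is imprecise, since its bulk rate rests on 13 of 54 reads (exact 95% interval 13.5% to 37.6%). Bulk sites had also passed the authors' filter on a minimum editing rate, and its effect on these ratios was not tested.

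Whether Nptn followed the general editing of a cell was described by the mean, per cell, of the rates at the 164 sites of other genes, each standardised over its covered cells. Site 349 had r = -0.140 and rho = 0.0133 with this mean (n = 23 cells). The summed Nptn rate had r = 0.329 and rho = 0.535 (n = 24). Site 630 had r = 0.360 and rho = 0.451 (n = 24), but r was 0.0888 and rho 0.333 without the 2 cells with the most extreme mean. The number of Nptn sites edited in a cell had r = 0.448 and rho = 0.614 (n = 24), and r = 0.512 without those 2 cells. All of these quantities come from the same library of a cell and share its depth. The number of sites of other genes covered in a cell, from 128 to 157, had r = -0.0593 and rho = -0.227 with site 349. With the summed Nptn rate it had r = -0.0317 and rho = -0.0341. This number is not the read depth at Nptn, which is unknown.

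The sites of other genes whose rates were most like site 349 over jointly covered cells were, by Spearman's rho, 2 sites of Cybb (0.385, n = 23 and 0.335, n = 22), and sites of Ssr3 (0.312, n = 23), Selenof (0.292, n = 21) and Igf1 (0.278, n = 20). The sites of Ssr3, Selenof and Igf1 were each edited in only 3 cells. The least like were sites of B2m (-0.558, n = 23), Arl8b (-0.506, n = 21) and Anxa4 (-0.485, n = 22). Over the 124 sites compared, rho had a median of -0.0428, was above 0.5 in none and below -0.5 in 2, and the extremes are the ends of that range. Sites of the same gene differed. Over the 7 B2m sites rho was 0.148, 0.0525, -0.0734, -0.0780, -0.223, -0.239 and -0.558. Over the 8 Cybb sites it was 0.385, 0.335, 0.233, 0.0541, -0.00563, -0.0777, -0.123 and -0.228. It was 0.168 at another site of Anxa4. Whether the values lean by gene was not tested.

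Related genes were looked up in both lists, which named 275 genes in bulk and 89 in single cells. The lists do not give the genes that could have been called, so the share over all genes is unknown. A gene that is not listed may be unexpressed or too thinly covered, and the counts describe the lists alone. Of 13 genes of the neuroplastin family and its partners, including basigin, the calcium pumps and the monocarboxylate transporters, Emb (embigin) alone was listed, with 3 bulk sites, the highest at 17.1% (6 of 35 reads, exact 95% interval 6.56% to 33.6%) and no single-cell site. Of 16 immunoglobulin superfamily genes of macrophage adhesion, Alcam, Slamf7 and Cd302 were in the bulk list, at up to 11.4% (4 of 35 reads), 7.41% (2 of 27 reads) and 13.5% (5 of 37 reads). Cd302 was also in the single-cell list, with 1 site. Of 6 genes of the C-to-U machinery, Rbm47, an RNA-binding cofactor of APOBEC1, and Celf2 had 1 single-cell site each and no bulk site.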

How the data were processed

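Per the authors, 100-nt reads were cleaned of adapters by Trim Galore 0.2.5, placed on mm10 by TopHat2 with unique alignments only, and cleared of duplicates by Picard. Bulk sites were kept by the authors where C-to-T changes appeared in wild type and not in the Apobec1 -/- library, and after filters on depth, repeats, splice junctions and dbSNP variants. The deposited bulk list gives, for every site, a read count and the edited fraction of reads. The deposited single-cell list gives an edited fraction per cell, without depth, and the fraction of cells edited. Edited bulk reads were depth times rate, whole within 0.001 at 410 of 410 sites.

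All rows with the symbol Nptn were used. The members, gene lists and tests were chosen with earlier results of these data known. Also named were the 5 sites of other genes with the highest and the 3 with the lowest rho with site 349, among those covered in at least 20 cells, genes with at least 7 single-cell sites, and listed members of 3 gene lists. Degs1, F13a1 and Tmed5 were named after their values were seen. A symbol that a spreadsheet had turned into a date was restored by position, giving Selenof. Sequences were read from GRCm38, and transcripts from GENCODE vM21. Rates were summarised over covered cells. Intervals are 95% intervals. Python 3.11.15, NumPy 2.4.6, SciPy 1.17.1, pandas 2.3.3 and matplotlib 3.10.9 were used, and the procedures were tested on simulated data. Alternatives varied the exact test, the interval, the treatment of uncovered cells, the rate that counts as edited, the coefficient, the sites kept and each cell left out.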

Additional observations from a re-analysis of the deposited data

How the results depend on the processing

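Of 257 alternative values computed for the Nptn results, 252 stayed within the spread between cells, between site pairs or of the coefficient, within 1.5 times a count, or on the same side of the test's threshold, and none changed the call of a test. Most of these values leave out 1 cell, which can hardly move a mean beyond the spread between cells. The count therefore does not measure robustness. The mean at site 500 counted as unchanged although it was 2.85% without its highest cell, against 6.30%. With at least 20% as the rate that counts as edited, 9 cells were edited at site 349, against 14 with any rate above 0. With only sites covered in at least 20 cells, the SD of site 349 ranked 1, against 3 over all sites, since fewer sites were ranked. The others were counts of edited cells at site 500 (1 at 20% or more) and site 769 (5 at 10% or more and 4 at 20% or more). Cells edited at 1 or more sites numbered 21 at 10% or more and 19 at 20% or more.

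With 1 cell left out at a time, the mean at site 349 ran from 20.9% to 24.8%, the median r over site pairs from -0.134 to -0.0635, and r of site 349 with the mean of other genes from -0.208 to -0.0242. The median over site pairs changed sign with Spearman's rho (0.0368, against -0.110 with Pearson's r), and so did the correlation of site 349 with other genes (0.0133, against -0.140). Boschloo's exact test gave an adjusted p of 0.180 for the largest bulk difference, and 0.276 came from Fisher's exact test over only pairs further apart than a read. Bulk depth of 54 to 63 reads limits the comparison of sites, and depth per cell is unknown.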
